A study of Mus musculus with 23 samples.

Results

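Phf17, listed as Jade1 in the GENCODE annotation of GRCm38, was described here across 135.0 kb of mouse chromosome 3 that hold its promoters, its gene body and 2 upstream long terminal repeats (LTRs). The locus was taken as all windows whose midpoint lay in chr3:41485000-41620000, which gave 34 of 333984 windows at E6.5 and 39 of 402812 windows at E7.5, the latter with both parental alleles apart. The LTRs were RLTR20C at chr3:41492880-41493378 and RLTR31B_Mm at chr3:41527997-41528561, 62.4 kb and 27.2 kb upstream of the gene, and the promoter peak was chr3:41550000-41592000. The intervals come from paternal chromatin marks in extra-embryonic ectoderm (ExE), and the difference between the alleles in E7.5 ExE was known when the locus was picked. Parental values in that tissue are therefore described without a test.

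JADE1, the product of Phf17, is a PHD-finger protein that acts as a scaffold of the HBO1 (KAT7) histone acetyltransferase complex and binds the von Hippel-Lindau protein VHL. Imprinted genes are expressed from the allele of one parent. In canonical imprinting the mark is DNA methylation laid down in a gamete, whereas in non-canonical imprinting the mark in the oocyte is H3K27me3, and the imprint is seen mainly in extra-embryonic tissue, where LTRs of endogenous retrovirus-K can serve as promoters.

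DNA methylation was measured by post-bisulphite adaptor tagging in hybrid embryos, in 15 libraries at E6.5 and 8 at E7.5, from the epiblast, which forms the embryo proper, and from the ExE, a precursor of placenta, separated by hand. In B6/CAST the mother was C57BL6/Babr (B6) and the father CAST/Ei, and in CAST/B6 the strains were exchanged. The third cross, matDKO/CAST, had mothers of mixed B6 and 129 background that were Dnmt3a fl/fl and Dnmt3b fl/fl and carried Zp3-cre, which deletes both de novo methyltransferase genes in growing oocytes, and CAST fathers; its embryos inherited undeleted copies of both genes from the father. The E6.5 libraries came from pooled embryos, namely 3 of B6/CAST epiblast and 2 of its ExE, 3 and 2 likewise for CAST/B6, and 2 and 3 for matDKO/CAST. Those of E7.5 came from single embryos, 2 per tissue in each wild-type cross. Test results therefore measure the spread between these pools or embryos.

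Each value is the percent methylation of a window placed to hold 100 CpGs, and the windows of the locus held a median of 56 CpG dinucleotides of the reference sequence at E6.5 and 49 at E7.5. Windows were 319 to 6870 bp long at E7.5, so that CpG-dense sequence was resolved more finely, and both LTRs are shorter than the windows over them. The number of reads behind a value is unknown. At E7.5 all 39 windows had a value in all 8 libraries, whereas at E6.5 29 of 34 had one in all 7 ExE libraries and 22 of 34 in all 8 epiblast libraries. Mean autosomal methylation of the wild-type libraries was 63.9% to 78.3% in E6.5 epiblast and 50.5% to 64.5% in E6.5 ExE, where both CAST/B6 libraries lay above both B6/CAST libraries, and 71.7% to 75.6% and 56.1% to 59.2% at E7.5. In matDKO/CAST it was 51.1% and 53.0% in epiblast and 37.2% to 39.3% in ExE. The tissues were checked at 2 marker genes. The window over the start of Elf5, a trophoblast transcription factor, was at 85.9% in E7.5 epiblast and 63.9% in E7.5 ExE, and that over the start of Pou5f1, the pluripotency factor OCT4, at 18.1% and 38.9% (limma adjusted p = 0.000299 and 0.000199). At E6.5 the values were 83.8% and 74.7% for Elf5 and 3.81% and 39.1% for Pou5f1 (adjusted p = 0.0954 and 0.00791).

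The annotation places a gene start at each of the elements. RLTR20C contains the start of Platr4 and RLTR31B_Mm the start of 2400006E01Rik, both long non-coding RNAs on the minus strand. Phf17 lies on the plus strand at chr3:41555731-41616864, with 3 annotated transcripts that start within 29 bp of each other at the upstream end, here called the upstream start, 6 that start 7638 to 9189 bp further into the gene, at a CpG island, and 5 that start 25125 to 46699 bp into it. The sequences below show how the elements differ in CpG content, on the plus strand of GRCm38, 5′ to 3′, with CpG dinucleotides in capitals: the 247 bases before the upstream start (chr3:41555484-41555730), 250 bases of intron in the island (chr3:41565011-41565260), and the 250 bases with the most CpGs in RLTR20C (chr3:41492880-41493129).
Phf17 upstream promoter: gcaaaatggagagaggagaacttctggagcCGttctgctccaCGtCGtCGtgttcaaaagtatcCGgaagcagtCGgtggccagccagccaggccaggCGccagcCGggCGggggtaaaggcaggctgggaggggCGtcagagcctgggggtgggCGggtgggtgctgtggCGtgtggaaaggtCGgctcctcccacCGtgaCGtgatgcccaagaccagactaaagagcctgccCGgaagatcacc
Phf17 CpG island: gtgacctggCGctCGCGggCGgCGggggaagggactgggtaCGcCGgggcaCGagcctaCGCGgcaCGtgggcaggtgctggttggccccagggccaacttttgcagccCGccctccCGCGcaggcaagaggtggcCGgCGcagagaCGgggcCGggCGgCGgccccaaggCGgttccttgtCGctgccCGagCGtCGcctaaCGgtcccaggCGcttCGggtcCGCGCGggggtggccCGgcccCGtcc
RLTR20C: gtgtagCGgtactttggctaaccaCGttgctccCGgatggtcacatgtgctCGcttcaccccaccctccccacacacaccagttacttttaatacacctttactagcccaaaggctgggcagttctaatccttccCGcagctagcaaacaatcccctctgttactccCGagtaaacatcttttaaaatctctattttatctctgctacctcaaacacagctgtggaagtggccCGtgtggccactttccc

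The upstream promoter held 16 CpGs and the island stretch 33, whereas the RLTR20C stretch held 7. Among 32851 promoters of the same assembly in RefSeq, read over the 250 bases before the start, the median was 6 CpGs, 77.0% held 16 or fewer and 96.5% held 33 or fewer. Across its whole length RLTR20C had 12 CpGs in 499 bp. The E7.5 window over the upstream start, chr3:41555363-41556626, had 3.80 CpGs per 100 bp. The 5 windows of the island had 4.48 to 14.7, and the windows outside the island, the start window included, had a median of 1.27.

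In E7.5 ExE the window over the upstream start had a methylated maternal and a nearly unmethylated paternal allele. Its maternal allele was at 74.7% and 75.3% in the 2 B6/CAST libraries and at 88.2% and 74.4% in the 2 CAST/B6 libraries. Its paternal allele was at 5.73% and 25.8% in B6/CAST and at 7.36% and 6.12% in CAST/B6. The maternal allele was above the paternal allele in every library and in both directions of the cross, whichever strain it came from, and 1 paternal value, from the second B6/CAST embryo, lay above the others. Means were 78.1% ± 6.70 and 11.3% ± 9.73 (SD, n = 4), a difference of 66.9 ± 13.0 percentage points. Without the second B6/CAST embryo it was 72.7 points. Reads with both alleles together gave 50.8%, 51.0%, 49.7% and 46.9% in the same embryos.

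**Figure D1:**
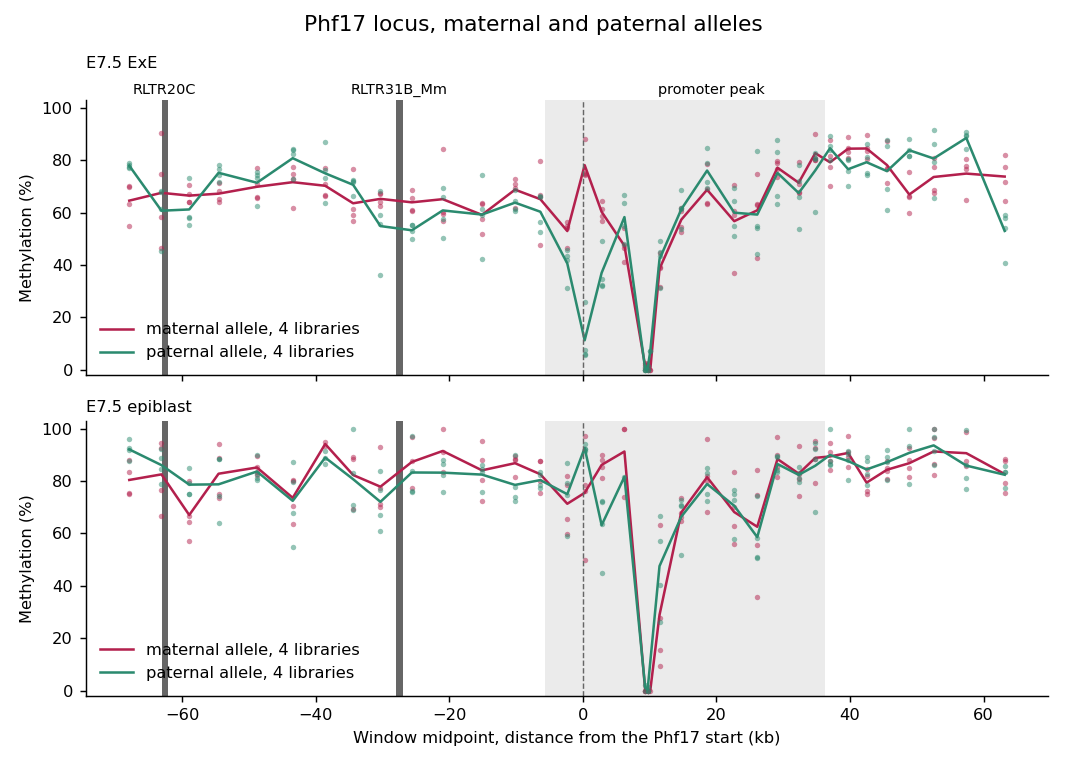
Methylation in percent of the maternal and paternal alleles in E7.5 ExE (top) and epiblast (bottom) against the distance of the window midpoint from the upstream start of Phf17 in kb. Points are libraries and lines their means, and the LTRs and the promoter peak are marked. In ExE the lines part at the upstream start (78.1% and 11.3%), and both fall close to 0 at the CpG island.

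The allelic gap was narrow. The window before the start, chr3:41551422-41555362, had maternal values of 54.0%, 46.7%, 54.9% and 56.4% and paternal values of 45.9%, 41.9%, 43.3% and 31.3% in ExE, a difference of 12.4 ± 8.88 points. The window after it in the first intron, chr3:41556627-41560443, had maternal values of 57.0%, 61.3%, 64.4% and 58.7% and paternal values of 34.7%, 32.4%, 31.9% and 49.1%, a difference of 23.3 ± 10.1. The alleles did not overlap in either window, yet both differences were below that at the start. In the next window, chr3:41560444-41563453, the sign turned, with the paternal allele higher in all 4 libraries by 10.9 points on average (maternal 47.4% ± 5.32, paternal 58.3% ± 8.52). Both alleles together gave 29.4%, 27.4%, 27.1% and 33.6% there, below both allele means. The values of single alleles thus did not stand for this whole window, and the sign is given with that limit. Over the 13 windows of the promoter peak measured on both alleles the maternal excess in ExE was 6.81 ± 2.13 points, and without the start window it was 1.80.

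In the windows over the LTRs the alleles of ExE lay closer together than at the upstream start. The LTRs fill a small part of these windows, 499 of 4102 bp for RLTR20C and 506 of 4132 bp in the main window of RLTR31B_Mm. Values of the LTRs alone are therefore unknown. In the window over RLTR20C, which starts Platr4, the maternal allele was at 74.8%, 46.7%, 58.3% and 90.5% and the paternal allele at 45.3%, 68.5%, 67.9% and 61.4%. In 2 of 4 libraries the maternal value exceeded the paternal one, and the difference of 6.83 points was smaller than its SD of 26.5. RLTR31B_Mm, which starts 2400006E01Rik, fell mainly in the window chr3:41528056-41532187, where the maternal allele was at 68.6%, 61.0%, 60.6% and 65.6% and the paternal allele at 53.1%, 55.2%, 49.8% and 55.1%. All maternal values there were above all paternal values, by 10.7 ± 3.96 points on average. In the window on its other side, chr3:41522782-41528049, which covers 53 bp of the LTR, the difference was 10.4 ± 12.9 points and the maternal value exceeded the paternal one in 3 of 4 libraries.

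Elsewhere in the locus differences of both signs occurred in ExE. Of the 35 windows with both alleles in all 4 libraries, 7 had the maternal allele higher in every library (6.32% of all autosomal windows) and 5 the paternal allele (6.27%), and 6 and 4 had alleles that did not overlap (1.42% and 1.34%). Since the locus was picked on this contrast, nothing is read from these counts. The smallest value was in the 3′ part of the gene, at chr3:41603190-41606000, with maternal values of 59.8%, 75.5%, 66.5% and 65.9% and paternal values of 81.6%, 88.0%, 81.7% and 84.1%, a difference of -16.9 ± 4.01 points. At the 3′ end, chr3:41615733-41622018, the sign was opposite, with maternal values of 77.3%, 64.4%, 81.8% and 71.6% against paternal values of 59.2%, 40.8%, 58.0% and 54.1%. At the downstream edge of the locus the last window inside differed by 20.8 points and the first outside by 14.2, and at the upstream edge the values were -13.3 inside and -12.7 outside.

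In the E7.5 epiblast both alleles of the upstream start were methylated. The maternal allele was at 76.1% and 50.0% in B6/CAST and at 78.6% and 97.4% in CAST/B6, and the paternal allele at 92.3%, 92.3%, 91.7% and 94.3%. The paternal values lay within 3 points of each other, whereas the maternal values spread widely and were lower than the paternal value in 3 of 4 libraries. The difference of -17.1 ± 18.8 points was not significant (exact two-sided sign-flip test, p = 0.25; the smallest this design allows is 0.125). The paternal allele was thus at 92.6% ± 1.15 in epiblast and 11.3% ± 9.73 in ExE, a gap of 81.4 points with no overlap, whereas the maternal means of 75.5% and 78.1% differed by -2.63 points and overlapped. These tissue values per allele rest on the ExE alleles that defined the locus and were not tested.

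Of the 27 windows with both alleles in all epiblast libraries, 2 were higher on the maternal allele in all 4 (5.75% of all windows) and 2 on the paternal allele (6.0%). By limma 0 of 27 passed, against 0.00629% and 0.00210% of all windows in the same order, and 4 of 27 had an unadjusted p under 0.05, against 4.87% of all windows. The largest maternal excess was in the first intron next to the start, chr3:41556627-41560443, with maternal values of 85.4%, 88.1%, 81.2% and 90.0% and paternal values of 63.6%, 71.9%, 72.2% and 45.0%. It was the 1 window of the locus with no overlap between the alleles and the maternal allele higher (1.22% of all windows), at 23.0 points (limma SE 6.48, adjusted p = 0.941), close in size to the 23.3 points of the same window in ExE. The lowest value was at chr3:41566045-41568355, after the island, with maternal values of 27.6%, 63.2%, 9.38% and 15.4% and paternal values of 26.2%, 40.3%, 66.7% and 57.0%, so that B6 exceeded CAST in every embryo and the difference of -18.7 points was smaller than its SD of 37.2.

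No difference between the alleles of the LTR windows was significant in epiblast. RLTR20C was at 94.4%, 66.7%, 76.5% and 92.7% on the maternal and 78.8%, 92.2%, 84.5% and 88.9% on the paternal allele, a difference of -3.53 ± 17.5 points (exact sign-flip test, p = 0.75). At RLTR31B_Mm only the window chr3:41522782-41528049 had all values, and the maternal value exceeded the paternal one in all 4 libraries, by 5.78 ± 4.15 points (p = 0.125 by the same exact test, the smallest possible). Over 11 windows of the promoter peak the difference was -0.478 points (exact p = 1). By limma 0 windows of the locus differed between B6 and CAST alleles in either tissue (0% of all windows in both). At an unadjusted p under 0.05 there were 6 of 35 in ExE, against 8.73% of all windows, and 5 of 27 in epiblast, against 6.65%. At the upstream start the B6 minus CAST value was -7.68 (SE 5.05) in ExE and -12.1 (SE 5.88) in epiblast.

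Both tissues were then compared with the alleles together. At the upstream start the E7.5 epiblast was at 79.5% and 72.8% in B6/CAST and 84.3% and 92.8% in CAST/B6, and the ExE at 50.8%, 51.0%, 49.7% and 46.9%. The tissues did not overlap, and the ExE values lay within 5 points of each other. The difference was 32.7 points (limma SE 3.69), and it was 31.1 and 29.3 points in the windows after and before it. The ExE values at the start hold the paternal allele on which the locus was picked, so this difference is given without a test. In the window chr3:41528056-41532187 over RLTR31B_Mm the difference was 28.2 points (SE 2.20, adjusted p = 7.92e-05): the epiblast was at 75.5%, 80.8%, 83.7% and 80.3% and the ExE at 51.0%, 51.6%, 52.0% and 52.9%. RLTR20C, in the window chr3:41490586-41494687, was at 70.2%, 86.4%, 74.7% and 87.2% in epiblast and 56.7%, 51.9%, 54.6% and 61.7% in ExE, a difference of 23.4 points (SE 4.21, adjusted p = 0.000946). Both LTRs were delimited by ExE marks of the paternal allele, and these ExE values hold that allele. The p-values over the LTRs are therefore not independent of the choice of the locus. The lowest difference was -2.77 points (SE 3.77, adjusted p = 0.511) after the island, at chr3:41566045-41568355.

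**Figure D2:**
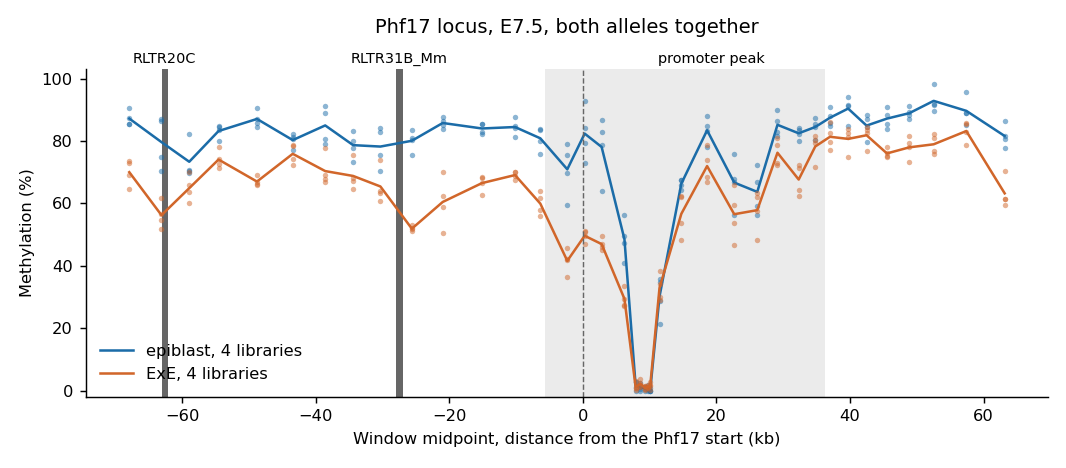
Methylation in percent of the windows of the Phf17 locus in E7.5 epiblast and ExE, both alleles together, against the distance of the window midpoint from the upstream start in kb. Points are libraries and lines their means. The tissues part most at the upstream start (82.4% and 49.6%) and meet near 0 at the CpG island.

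Higher methylation in epiblast was general, in the locus and elsewhere. Leaving aside the start window, 28 of the other 38 windows of the locus were higher in E7.5 epiblast by limma and 0 in ExE, against 82.9% and 1.30% of all autosomal windows. The median difference was 11.0 points over the 39 windows of the locus and 16.5 over all windows. With each library's autosomal mean subtracted, 4 of the 38 were higher (19.0% of all windows) and 13 lower (20.8%) in epiblast. The 4 were the window over most of RLTR31B_Mm, the next one, and the windows on either side of the upstream start, whose own difference was 16.4 points. A window unmethylated in both tissues, as in the CpG island, turns lower in epiblast by the subtraction alone. The promoter peak as a whole was at 49.8% ± 1.36 in epiblast and 39.6% ± 1.97 in ExE (n = 4 each), a difference of 10.2 points that became -6.08 points after the subtraction. It was not tested either, since the peak holds the start window.

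The CpG island was nearly unmethylated in both tissues. Its 5 windows, 7723 to 10313 bp downstream of the upstream start, hold 3 of the 6 start sites annotated there and adjoin the other 3. The 40 values of both tissues at E7.5 ran from 0% to 3.66% with a median of 1.07%. On single alleles 3 of the 5 windows had values, 1 of them in a single epiblast library, and the 32 values ran from 0% to 7.14%. The lowest mean of the peak in E7.5 ExE was in this island, 0.855% at chr3:41564857-41565264, and the highest was 78.2% at chr3:41589445-41591589, near its downstream edge. At E6.5 the 71 island values, matDKO/CAST included, ran from 0% to 17.6% with a median of 0.667%, and 5 were above 5%.

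The E6.5 epiblast and ExE separated at RLTR20C. Its window, chr3:41488976-41493945, was at 79.2%, 86.1% and 78.0% in B6/CAST epiblast, at 93.5%, 71.6% and 94.7% in CAST/B6 epiblast, and at 51.1%, 42.2%, 57.1% and 53.7% in the 4 wild-type ExE libraries. All 6 epiblast values were above all 4 ExE values, and the difference of 32.8 points (limma SE 5.05, adjusted p = 0.000759; exact permutation test, p = 0.00952) was the largest of the 29 windows with a value in every wild-type library. After subtraction of the autosomal means it was the 1 window of the locus still higher in epiblast (16.3 points, adjusted p = 0.0454 by limma; 6.19% of all windows), and 3 windows of the unmethylated CpG island were lower (8.73%). RLTR31B_Mm, averaged over its 2 windows, ran from 63.4% to 81.8% in epiblast and from 47.2% to 77.3% in ExE, a difference of 16.1 points (exact permutation test, p = 0.0476) that was -0.439 after the subtraction and missed the threshold when any of 9 of the 10 libraries was left out (exact p = 0.0635 to 0.119). Since ExE marks delimited the LTRs, the p-values over both LTRs are not independent of that choice on this day either. In all, 10 of 29 windows were higher in epiblast by limma (59.6% of all windows) and 0 in ExE (0.663%), with a median difference of 9.44 points against 16.6 genome-wide, and the lowest was -8.86 points (SE 9.37, adjusted p = 0.420) at chr3:41566212-41570062.

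At the upstream start the E6.5 tissues overlapped and the crosses stood apart. The E6.5 window, chr3:41554611-41556158, was at 48.5%, 38.6% and 70.1% in B6/CAST epiblast and 88.0%, 77.5% and 74.1% in CAST/B6 epiblast. In ExE it was at 42.7% and 33.2% in B6/CAST and 86.5% and 67.4% in CAST/B6. The CAST/B6 libraries were above the B6/CAST libraries in both tissues, by 27.5 points in epiblast (limma SE 9.04, adjusted p = 0.306; exact permutation p = 0.1, the smallest possible) and by 39.0 points in ExE (SE 10.9, adjusted p = 0.120; exact p = 0.333, the smallest possible). The difference between tissues was 8.68 points (SE 6.59, adjusted p = 0.263; exact permutation p = 0.514), ran from 0.584 to 18.4 when 1 library was left out, and was -7.87 with autosomal means subtracted. CAST/B6 libraries also had the higher autosomal means at E6.5, and with these subtracted the crosses differed by 18.6 points in epiblast and 26.4 in ExE.

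**Figure D3:**
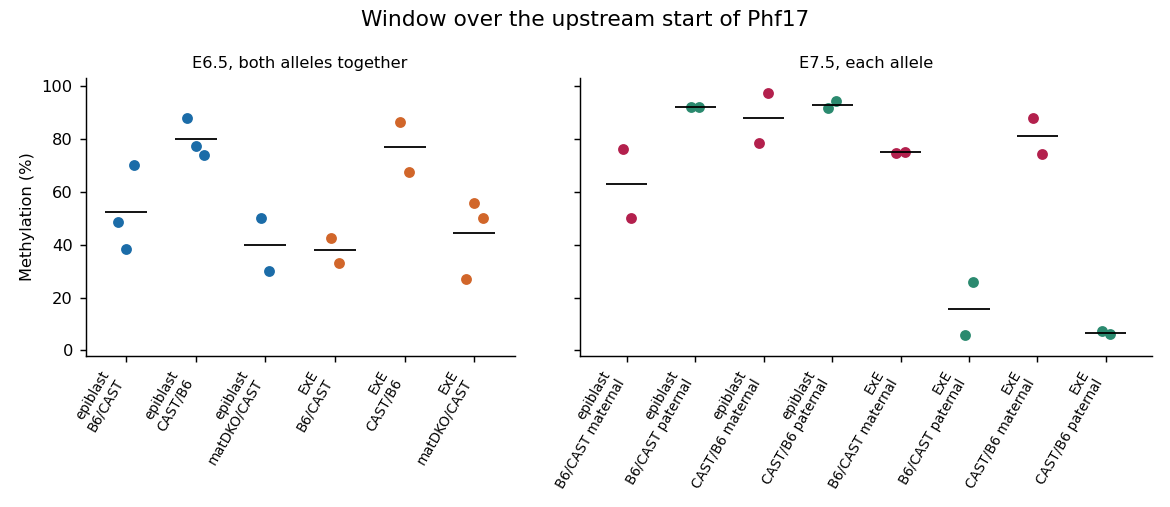
Methylation in percent of the window over the upstream start of Phf17. Left, E6.5 libraries by tissue and cross with both alleles together; right, E7.5 libraries by tissue, cross and allele; points are libraries and bars the means of the groups. At E6.5 the CAST/B6 libraries lie above the B6/CAST libraries in both tissues, and at E7.5 the paternal allele is at 25.8% or less in ExE and at 91.7% or more in epiblast.

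At E7.5 the same cross difference was 12.4 points in epiblast (limma SE 4.60, adjusted p = 0.877) and -2.60 in ExE (SE 3.25, adjusted p = 0.939). Days were measured in separate windows and in pools or single embryos, and were not tested against each other. By limma 0 windows of the locus differed between crosses in either tissue on either day (0% of all windows in each). At E6.5 an unadjusted p under 0.05 was found in 4 of 22 windows in epiblast and 5 of 29 in ExE, against 14.2% and 23.3% of all windows, and at E7.5 in 4 and 2 of 39, against 5.04% and 5.50%. A tissue difference that itself differed between the crosses was found in 0 windows of the locus by limma (0% of all windows on both days), with 0 of 29 at E6.5 and 3 of 39 at E7.5 at an unadjusted p under 0.05, against 6.30% and 4.83% of all windows.

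Loss of maternal DNMT3A and DNMT3B was examined in matDKO/CAST against B6/CAST, the cross of the same direction, with alleles together. In epiblast 8 of 22 windows were lower in matDKO/CAST by limma (23.4% of all windows) and 0 higher (0.0291%), and the median change was -13.6 points against -16.4 genome-wide. RLTR20C fell by 35.7 points, from 79.2%, 86.1% and 78.0% to 40.9% and 50.0% (SE 7.91, adjusted p = 0.0212). The lowest value of the locus was in the first intron, chr3:41556277-41560254, with 74.7%, 67.3% and 84.8% in B6/CAST and 50.0% and 14.3% in matDKO/CAST, a change of -43.5 points (SE 10.3, adjusted p = 0.0248). The groups did not overlap in either window. The matDKO/CAST libraries had values in 89.2% and 72.2% of all autosomal windows, the lowest shares of the E6.5 epiblast libraries. Counts of windows that passed ran from 1 to 7 when a library was left out. The count of 7 left 1 matDKO/CAST library, which was then assumed to vary like the other groups, and without the other matDKO/CAST library the count was 4 of 31 (15.1% of all windows). The count of 1, of 22, was without the B6/CAST epiblast library whose column number, 2, matches no sample title, when 5.43% of all windows passed. On a logit scale and after subtraction of the autosomal means 0 of 22 passed, with 0% of all windows in both, and the change at RLTR20C after the subtraction was -18.7 points.

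The upstream start was not significantly changed in matDKO/CAST epiblast, at 50.0% and 30.0% against 48.5%, 38.6% and 70.1%, a difference of -12.4 points (limma SE 10.1, adjusted p = 0.360). At RLTR31B_Mm 1 window, which covers 94 bp of the LTR, had values in all libraries, 73.3% and 90.0% in matDKO/CAST and 76.9%, 90.9% and 88.9% in B6/CAST, and the groups overlapped (difference -3.89 points, exact permutation p = 0.6). The window over the other 471 bp, chr3:41528091-41532431, had a value in 1 matDKO/CAST library, 42.0%, below the 50.0%, 72.7% and 60.9% of B6/CAST, and was not tested. The promoter peak was at 31.7% and 18.4% in matDKO/CAST and 33.7%, 41.6% and 43.1% in B6/CAST, a difference of -14.4 points (exact p = 0.2, the smallest possible). With autosomal means subtracted the start differed by 4.55 points and the peak by 2.55, and with 1 library left out they ran from -22.4 to -2.40 and from -21.1 to -12.0.

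**Figure D4:**
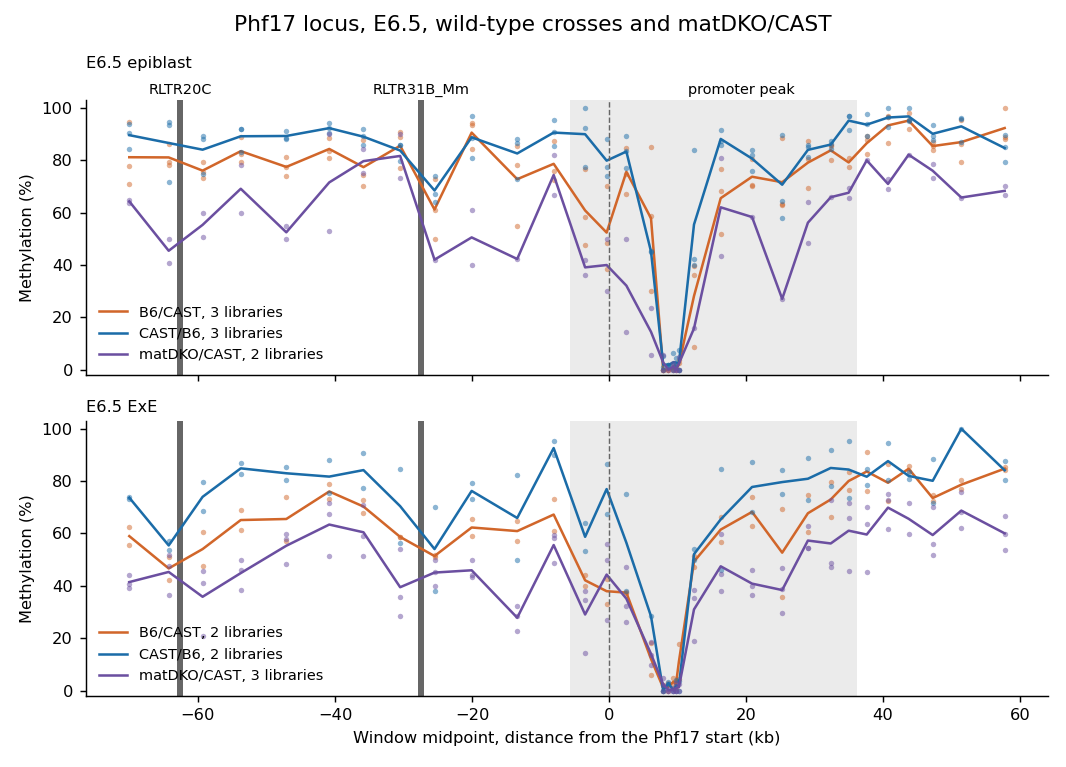
Methylation in percent of the windows of the Phf17 locus in E6.5 epiblast (top) and ExE (bottom) of both wild-type crosses and matDKO/CAST, both alleles together, against the distance of the window midpoint from the upstream start in kb. Points are libraries and lines the means of the libraries with a value in each cross. In epiblast the matDKO/CAST line is below B6/CAST at RLTR20C (45.5% and 81.1%), and in ExE the lines lie close together there (45.3% and 46.6%).

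In ExE 0 of 29 windows differed between matDKO/CAST and B6/CAST by limma (0% of all windows), with 8 at an unadjusted p under 0.05, against 25.8% of all windows, and the median change was -14.0 points against -12.4 over all windows. RLTR20C was at 47.8%, 36.5% and 51.6% in matDKO/CAST and 51.1% and 42.2% in B6/CAST, with overlap and a difference of -1.34 points (SE 6.81, adjusted p = 0.909). RLTR31B_Mm was at 40.4%, 52.1% and 34.3% against 55.1% and 54.9%, without overlap (difference -12.8 points, exact permutation p = 0.2, the smallest possible). The lowest value, -33.1 points (SE 9.50, adjusted p = 0.133), was between the LTRs and the gene at chr3:41539195-41545470, with 22.6%, 32.3% and 28.6% against 64.8% and 57.1%. The highest was the upstream start, with 26.9%, 56.0% and 50.0% in matDKO/CAST and 42.7% and 33.2% in B6/CAST, a difference of 6.34 points (SE 10.0, adjusted p = 0.679) that ran from 0.513 to 15.0 with 1 library left out. When the mean of both wild-type crosses was the reference, this value became -13.2 points and 15 of 29 windows of the locus passed as lower, against 49.0% of all windows. The effect at RLTR20C was 34.3 points more negative in epiblast than in ExE, which did not pass limma (SE 10.6, adjusted p = 0.411), nor did any other of 20 windows (0% of all windows; 3 at an unadjusted p under 0.05, against 8.80% of all windows).

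The starts of 10 partners and relatives of Phf17 were read in the same way: its paralogues Jade2 and Jade3, the acetyltransferase Kat7, the complex subunits Ing4, Ing5 and Meaf6, the alternative scaffolds Brpf1, Brd1 and Brpf3, and Vhl. In E7.5 ExE the windows over their starts averaged 0.584% to 41.5%, and 8 of 10 were under 12%. In Phf17 the upstream start was at 49.6% ± 1.88 there, and the island was between 0% and 3.66% in both tissues. In E7.5 epiblast they averaged 0.359% to 46.2%, and the upstream start of Phf17 was at 82.4% ± 8.43. The highest mean in each tissue was that of Vhl, in a window of 3419 bp. In the E6.5 window of 1330 bp over the same start Vhl was at 5.22% in ExE and 9.14% in epiblast. Of the 9 on autosomes 1 was higher in E7.5 epiblast by limma and 0 in ExE, against 82.9% and 1.30% of all windows. The 1 was Ing4, a reader of methylated histone H3, with 21.9% ± 6.09 against 10.1% ± 2.77 (SE 3.31, adjusted p = 0.00927). At E6.5 3 could be tested by limma and 0 passed (59.6% of all windows were called higher in epiblast), with 0 at an unadjusted p under 0.05 against 65.9% of all windows.

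When whole genes were averaged on each allele at E7.5, Phf17 with 16 windows was at 69.1% maternal and 62.7% paternal in ExE and at 77.4% and 78.2% in epiblast. Of 12531 genes with at least 3 windows, those nearest in the 16 allele values of the 8 libraries were Map1b, Dph6, St8sia1, Ice1 and Ttc23, with root mean square distances from Phf17 of 2.68 to 2.72 points. In ExE Map1b was at 66.7% and 64.2%, and St8sia1 at 67.4% and 63.8%.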

How the data were processed

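Hybrid epiblast and ExE were profiled by post-bisulphite adaptor tagging. The authors trimmed reads with Trim Galore, aligned them with Bismark (the sources name different versions) to GRCm38 with strain polymorphisms masked, used SNPsplit to assign the E7.5 reads to a parent, and realigned reads of matDKO/CAST for 129 alleles. The values deposited by the authors are percent methylation per window of 100 CpGs, with no scaling between libraries and no coverage, so no counting interval was computed. Whether the 129 realignment entered the tables is not given in the sources used here. The sources also do not explain the second import that some column headings mention. Members, elements and gene lists were chosen with earlier results of these data known.

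Groups came from the sample labels, and every value column was assigned to a group. The columns of the E6.5 B6/CAST epiblast include 1 whose number, 2, matches no sample title. Windows with a value in every library of a comparison were compared by linear models of the percentages (limma 3.58.1, R 4.3.3, default lmFit and eBayes). Each fit covered all autosomal windows, with Benjamini-Hochberg adjustment and a threshold of 0.05. Tissue fits had the cross as a covariate, matDKO/CAST and cross contrasts used a fit of group means within a tissue and day, and parental fits used the difference between alleles within each library, with the cross coded with opposite signs. Elements (LTR windows, start window, promoter peak) were averaged over windows measured in all libraries compared and tested with two-sided exact permutation or sign-flip tests. The limma code was tested on simulated data. Alternatives covered the scale, eBayes settings, cross term, library mean, missing values, chromosomes, summary over windows, a flank of 500 bp, the wild-type reference, a replicate block and each library left out.

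Windows named were those over the LTRs and the start, the extremes of each comparison and those at the edges, plus the neighbours of the start window and the 3′ end window, which were added after their values were seen. Genes most like Phf17 were the 5 nearest autosomal protein-coding genes more than 1 Mb away, with at least 3 windows in the gene and the 5 kb before it. CpGs were counted in the GRCm38 sequence with Python 3.11.15, numpy 2.4.6 and pandas 2.3.3, and promoters were taken from RefSeq. The sequence of 1 element is not reported here.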

Additional observations from a re-analysis of the deposited data

Results flagged for a closer look

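Among 40 groups of 4 to 10 values for the elements of the locus, 3 had a sample far from the others, where chance gives about 1 in 20. At the upstream start in E7.5 ExE the maternal allele of CAST/B6 replicate 1 was at 88.2%, above the other 3 libraries. In the same window the paternal allele of B6/CAST replicate 2 was at 25.8%, whereas the other paternal values were between 5.73% and 7.36%. In E7.5 epiblast the maternal allele of CAST/B6 replicate 1 was at 66.1% over the promoter peak, below the other 3 libraries.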

How the results depend on the processing

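Subtracting each library's autosomal mean changed most. It turned the E6.5 tissue difference to -0.439 points at RLTR31B_Mm, -7.87 at the upstream start and -9.14 over the promoter peak, and that at E7.5 to -6.08 over the peak, and left 7.10 at RLTR20C and 4.17 at RLTR31B_Mm at E7.5 (exact permutation p = 0.229 for both). The change in matDKO/CAST epiblast became 13.1 at RLTR31B_Mm, 4.55 at the start and 2.55 over the peak, and that in ExE 10.6 at RLTR20C and 3.18 over the peak. The cross difference became -3.32 at RLTR20C and -6.11 at RLTR31B_Mm in E6.5 epiblast, -3.86, -5.42 and -2.76 at RLTR20C, RLTR31B_Mm and the peak in E6.5 ExE, and -0.407 over the peak in E7.5 epiblast. Windows that passed as higher in epiblast fell to 1 at E6.5 (6.19% of all windows) and 5 at E7.5 (19.0%), the start window included. Those that passed as lower in epiblast came to 3 and 13 in the same order (8.73% and 20.8%), against 0 before the subtraction on both days. In matDKO/CAST epiblast 0 passed. A logit scale left 0 windows in matDKO/CAST epiblast (0% of all windows) and gave parental differences over the peak of 9.12 in ExE and 0.0599 in epiblast. These were 2.41 and 4.22 with the median over windows, 4.05 and 1.15 with a flank of 500 bp, and 1.80 and 1.19 without the start window. With both wild-type crosses as reference, the ExE start window changed by -13.2 in matDKO/CAST and 15 of 29 windows passed (49.0% of all windows).

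Deviations of same-numbered libraries from their group means had correlations from -0.0173 to 0.0506 over windows. In E7.5 B6/CAST the autosomal means of replicates 1 and 2 were 74.4% and 71.7% in epiblast and 58.9% and 56.3% in ExE. In CAST/B6 they were 74.0% and 75.6% in epiblast and 56.1% and 59.2% in ExE. With so few libraries a group, whether the numbers pair the libraries was not settled. A replicate block gave tissue differences of 27.5 at RLTR20C and 10.7 at RLTR31B_Mm at E6.5 (exact p = 0.25 and 0.5), and of 23.4 and 20.5 at the LTRs in the same order at E7.5 (exact p = 0.125, the smallest a block allows), where the start and the peak, given without a test, kept 32.7 and 10.2. It left 2 of 31 windows for the E6.5 tissues (19.9% of all windows) and 0 of 23 for matDKO/CAST epiblast (0%).

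Leaving out 1 library gave 8 to 13 windows for the E6.5 tissues (48.2% to 61.2% of all windows), 23 to 30 for the E7.5 tissues (78.1% to 81.6%) and 1 to 7 for matDKO/CAST epiblast (5.43% to 28.7%), where 4 and 7 rest on 1 matDKO/CAST library assumed to vary like the other groups. For matDKO/CAST epiblast 1 was left without the B6/CAST library whose column number, 2, matches no title, and 3 without B6/CAST replicate 3. The tissue difference at RLTR31B_Mm ran from 12.3 to 22.3 at E6.5 (16.1 without that same B6/CAST epiblast library, exact permutation p = 0.0635). At E7.5 tissue differences ran from 20.9 to 26.6 at RLTR20C and 19.1 to 22.6 at RLTR31B_Mm, each at the smallest exact p possible with 7 libraries, 0.0571, and, without a test, from 29.3 to 35.9 at the start and 9.33 to 10.9 over the peak. Ranges crossed 0 for the change in matDKO/CAST at RLTR31B_Mm in epiblast (-15.7 to 4.44) and at RLTR20C in ExE (-5.77 to 3.09), and for cross differences at RLTR31B_Mm in E6.5 epiblast (-2.25 to 6.94) and ExE (-7.86 to 22.3), at RLTR20C in E7.5 epiblast (-5.42 to 10.7) and over the peak in E7.5 ExE (-3.56 to 0.176). They also did so for parental differences at RLTR20C in ExE (-0.744 to 16.4) and epiblast (-9.91 to 3.79) and over the peak in epiblast (-1.69 to 2.79). The causes were not tested. With 2 to 4 libraries a group, exact tests of crosses, alleles and matDKO/CAST could not pass, and values of single alleles rest on fewer reads than those of both together.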
